A study of Mus musculus with 45 samples.

Results

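The 10 genes described here were Amotl2, Amotl1 and Amot, which encode the angiomotins, Yap1, Wwtr1 and Tead1, which encode the co-activators YAP and TAZ and a transcription factor that binds them, Lats1 and Lats2, which encode the kinases that restrain YAP and TAZ, and Ctgf and Cyr61, which encode secreted matrix proteins of the CCN family and are classical targets of YAP. They were taken by symbol from 24421 genes in the count tables, and all 10 were present and passed the expression filter in every comparison. Amotl2 was selected on its level in the isolated libraries, where it was higher with ethanol than with water, and the others as genes of its pathway. Values from that contrast, and for Amotl2 every difference between groups that uses its isolated libraries, are therefore given as a description, with no test.

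RNA of C57BL/6J mice was sequenced from medial prefrontal cortex, in a total homogenate and in a fraction isolated with beads against ACSA2, an antigen on the surface of astrocytes. Per the labels, the ethanol group could drink a 15% (v/v) ethanol solution on alternate days over 72 days, with death 24 h after its final day of drinking, while the control group had water for 72 days. There were 10 isolated libraries and 12 homogenates of water mice and the same numbers of ethanol mice, 44 libraries from 24 mice. Of these mice, 20 gave both fractions, since the homogenate was an aliquot of 5% of the suspension of minced tissue, taken before the remainder was dissociated and the cells were captured. Total gene counts were 504492 to 2938854 in isolated libraries of water mice, 1028493 to 3248804 in those of ethanol mice and 3673811 to 9109247 in the homogenates. The 5 isolated libraries under 1000000 counts were all from water mice. The isolated fraction was not pure astrocytes. Genes of astrocytes made up 0.748% to 2.29% of its gene counts in water mice (10 genes), those of microglia 0.441% to 0.916% (8 genes), those of oligodendrocytes 1.2% to 2.24% (8 genes), those of mural cells 0.106% to 0.188% (9 genes) and those of neurons 0.0149% to 0.0936% (8 genes).

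In the Hippo pathway, the kinases encoded by Stk3 and Stk4 activate the LATS kinases, which phosphorylate YAP and TAZ and keep them out of the nucleus. When this brake is released, YAP and TAZ enter the nucleus, bind TEAD factors and switch on genes such as Ctgf and Cyr61. Angiomotins are scaffold proteins of cell junctions and the actin cytoskeleton that bind YAP and TAZ directly and are themselves substrates of LATS kinases. In the mouse brain YAP is known from astrocytes and neural progenitors, and angiomotins were first studied in endothelial cells. The RNA of these genes was measured here, not the phosphorylation or location of their proteins.

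The 250 bases before an annotated transcription start are shown for the 4 genes whose promoter window held the core letters of the motif of TEAD, the factors at the end of the pathway. The sequences are from RefSeq (GRCm38.p6), given 5′ to 3′ on the strand of the gene, with CATTCC or its reverse complement GGAATG in capitals.
Amotl2 (chr9:102717554-102717803, plus strand): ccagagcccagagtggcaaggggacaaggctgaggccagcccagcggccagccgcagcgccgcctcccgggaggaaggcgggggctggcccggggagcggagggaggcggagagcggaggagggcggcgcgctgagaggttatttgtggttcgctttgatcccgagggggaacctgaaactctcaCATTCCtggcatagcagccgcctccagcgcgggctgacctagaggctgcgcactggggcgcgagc
Cyr61 (chr3:145649986-145650235, minus strand): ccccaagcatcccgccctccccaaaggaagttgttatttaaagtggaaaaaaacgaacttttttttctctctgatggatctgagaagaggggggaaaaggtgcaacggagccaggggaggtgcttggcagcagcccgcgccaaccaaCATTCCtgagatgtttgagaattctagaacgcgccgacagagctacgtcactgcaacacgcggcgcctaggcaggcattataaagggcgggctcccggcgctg
Yap1 (chr9:8004597-8004846, minus strand): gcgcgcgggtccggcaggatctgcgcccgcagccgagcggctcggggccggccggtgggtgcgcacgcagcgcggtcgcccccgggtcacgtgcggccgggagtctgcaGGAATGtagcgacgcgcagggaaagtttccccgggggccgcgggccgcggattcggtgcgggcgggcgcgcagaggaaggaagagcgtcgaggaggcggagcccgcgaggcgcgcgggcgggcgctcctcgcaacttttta
Wwtr1 (chr3:57575911-57576160, minus strand): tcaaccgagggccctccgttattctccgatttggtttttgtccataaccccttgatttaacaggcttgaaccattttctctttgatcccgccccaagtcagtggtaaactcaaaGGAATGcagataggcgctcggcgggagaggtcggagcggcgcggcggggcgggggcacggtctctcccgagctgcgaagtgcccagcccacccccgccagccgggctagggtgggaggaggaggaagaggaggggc
The match lay 65 bases before the start in Amotl2, 103 in Cyr61, 141 in Yap1 and 136 in Wwtr1. The Amotl2 window lies inside the span of the gene in GENCODE M21, which begins at 102716672, so it precedes a later start. Promoter windows were found for 8 of the 10 genes, all but Tead1 and Ctgf, and 4 of the 8 held the motif on either strand. By window, 5 of 10 held the motif, since Wwtr1 and Lats2 had 2 windows each. The windows of Wwtr1 overlap and share the same match. Among 32851 promoter windows of 250 bases, 12.6% held the motif. The AP-1 motif TGANTCA, the site of FOS and JUN factors, was in 0 of the 8 genes and in 6.75% of all windows. The TEAD and AP-1 letters did not overlap, since no window of these genes held both. A match is a stretch of letters, not evidence of binding.

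Amotl2 was the angiomotin gene with the clearest difference between the fractions. In water mice it lay at 115 to 185 CPM (read counts scaled to 1000000 gene counts per library) in the isolated fraction, with a median of 151.6 and a mean of 149.7 ± 21.9 (SD, n = 10). In homogenates of the same group of mice it lay at 24.7 to 54.5 CPM, with a median of 34.9 and a mean of 37.3 ± 9.55 (SD, n = 12). Every isolated library was above every homogenate. The log2 fold change was 1.92 ± 0.118 (SE), a 3.79-fold difference, given with no test because these isolated libraries entered the choice of Amotl2. Within single water mice the isolated fraction exceeded the homogenate by 2.75-fold to 6.92-fold, higher in 10 of 10 mice. As in any bulk sample, more cells of a type and more RNA per cell cannot be told apart.

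Amotl1 showed a smaller difference in the same direction, and Amot the opposite. Amotl1 had 106.5 to 164 CPM in isolated libraries of water mice, with a median of 116, and 58.6 to 106.1 CPM in homogenates, with a median of 72.3. These ranges met without overlapping, and the log2 fold change was 0.52 ± 0.103, with an adjusted p of 5.42e-05 in the quasi-likelihood test of edgeR (Benjamini-Hochberg over all 13434 genes tested). Amot had 14.5 to 56.1 CPM in isolated libraries, with a median of 31.8, and 40.6 to 69.7 CPM in homogenates, with a median of 57.5. The groups overlapped, but all 10 isolated libraries lay below the homogenate mean, and Amot was lower in the isolated fraction by a log2 fold change of -0.81 ± 0.15 (edgeR, adjusted p = 2.22e-05). The 3 genes of the angiomotin family thus differed between the fractions in size and direction.

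The LATS kinase genes were both higher in the isolated fraction. Lats2 had 85.7 to 148 CPM in isolated libraries of water mice, with a median of 121.6, against 38.9 to 87.1 CPM in homogenates, with a median of 52.4. The ranges overlapped by the lowest isolated and the highest homogenate library, and the log2 fold change was 0.97 ± 0.131 (edgeR, adjusted p = 1.48e-07). Lats1 had 53.5 to 124 CPM, with a median of 93.3, against 57.4 to 92.2 CPM, with a median of 67.8. Lats1 overlapped widely between the fractions and was higher by 0.34 ± 0.109 (edgeR, adjusted p = 0.00683).

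Of the genes of the transcriptional complex, Tead1 was higher in the isolated fraction, Wwtr1 was higher by a call that did not hold in every fit, and Yap1 did not pass. Tead1, the gene of a DNA-binding partner of YAP and TAZ, had 31.8 to 128.6 CPM in isolated libraries of water mice, with a median of 59.5, and 29.3 to 50.5 CPM in homogenates, with a median of 42.4. Its isolated libraries were the most spread of all 10 genes, with a coefficient of variation of 46.6%, and the log2 fold change was 0.65 ± 0.173 (edgeR, adjusted p = 0.00146). Wwtr1, which encodes TAZ, had 26.2 to 84.7 CPM, with a median of 44.9, against 27.2 to 49.4 CPM, with a median of 37.5. Its log2 fold change was 0.34 ± 0.132 (edgeR, adjusted p = 0.0229), and the isolated library of water mouse 73 was the highest at 84.7 CPM. Without that library the change in Wwtr1 was 0.21 (edgeR, adjusted p = 0.1), and with the mouse as a block, in the 10 water mice with both fractions, it was 0.29 (edgeR, adjusted p = 0.0646). Yap1 had 26.6 to 77 CPM, with a median of 43, against 36.4 to 65.4 CPM, with a median of 50.5. Its log2 fold change was -0.07 ± 0.134 with a 95% interval from -0.35 to 0.20 (edgeR, adjusted p = 0.642), and its sign turned to 0.04 with upper quartile scaling, which moved the median of all genes by 0.10.

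The CCN genes went apart. Cyr61 had 139 to 278 CPM in isolated libraries of water mice, with a median of 179, and 6.5 to 26.3 CPM in homogenates, with a median of 14.7. The groups were far from overlapping, and the difference, 3.54 ± 0.206 on the log2 scale or 11.6-fold, was the highest of the 10 genes (edgeR, adjusted p = 2.38e-14). Cyr61 is also known as an immediate early gene. The summed level of 10 early response genes such as Fos, Jun and Egr1 was also higher in the isolated fraction. The relation of this sum to Cyr61 over libraries was not tested. That sum was 1.03% to 1.75% of gene counts in isolated libraries of water mice and 0.0625% to 0.227% in homogenates, and each of the 10 genes passed as higher, at a median of 4.53 on the log2 scale. Per the labels, dissociation, myelin removal and bead capture were done for the isolated cells alone, so that handling and cell type cannot be told apart. Ctgf had 10.3 to 31.6 CPM in isolated libraries, with a median of 18.4, and 11.3 to 59.4 CPM in homogenates, with a median of 23.9. Its log2 fold change was -0.58 ± 0.227 (edgeR, adjusted p = 0.0219). The groups overlapped, the count in an isolated library was as low as 8, and with the mouse as a block the change was -0.48 (edgeR, adjusted p = 0.076).

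**Figure D1:**
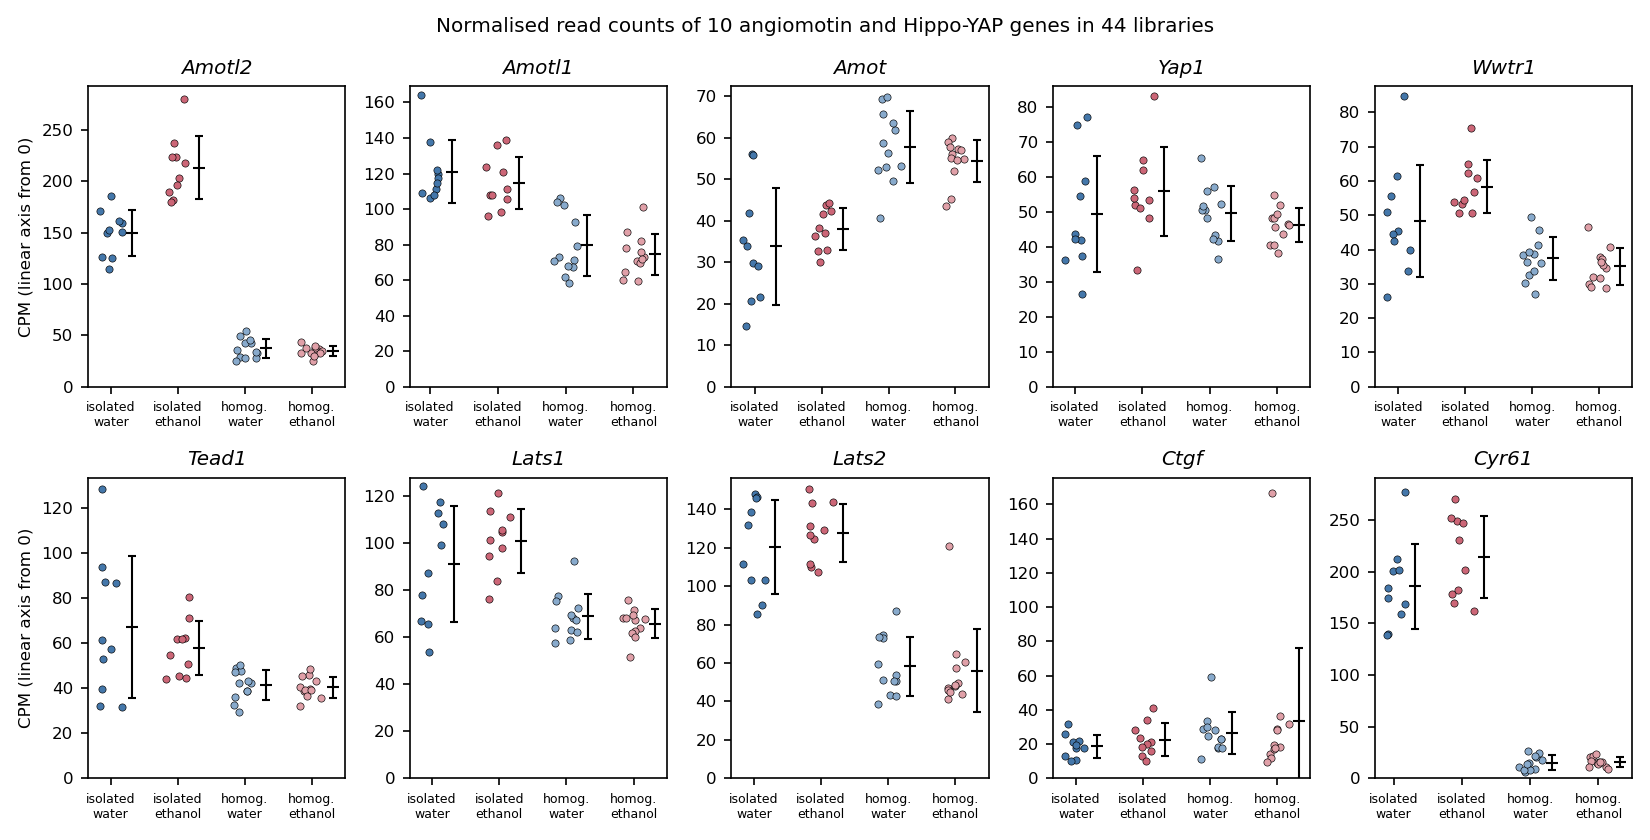
Normalised read counts (CPM, linear axes from 0) of the 10 genes in 44 libraries, by fraction and treatment. Points are libraries and the bars beside them the mean ± SD (n = 10 for isolated and 12 for homogenate groups; the lower bar of Ctgf in ethanol homogenates is cut at 0). Amotl2 and Cyr61 stand apart between the fractions, and 1 ethanol homogenate carries Ctgf at 167 CPM.

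In all, of the 9 genes other than Amotl2, the isolated fraction of water mice had 6 higher and 2 lower, with Yap1 not passing. This share is close to the background: 77.5% of all 13434 genes tested passed, 37.2% higher and 40.3% lower. The CPM of 2 of the 9 genes, Amotl1 and Cyr61, did not overlap between the fractions, as for 37.4% of all genes. The median log2 fold change of the 9 genes was 0.34, against -0.05 for all genes tested. These fits did not pair the fractions of a mouse. With the mouse as a block, in the mice with both fractions, 6 of the 9 genes were called, Wwtr1 and Ctgf being lost.

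The same comparison was made in ethanol mice, which share no library with the water mice. Here 6 of the 9 genes other than Amotl2 were higher and 1 lower, beside 81.7% of 13489 genes tested that passed, 39.8% higher and 41.9% lower. The median over the 9 genes was 0.49, against -0.04 for all genes. Cyr61 was higher by 3.64 ± 0.139 (edgeR, adjusted p = 7.2e-19), from 162 to 270.4 CPM in isolated libraries against 8.8 to 23.7 CPM in homogenates. Lats2 was higher by 1.06 ± 0.145 (edgeR, adjusted p = 2.41e-07), from 107 to 150.7 CPM against 41.4 to 121 CPM, the top value being that of a single homogenate, ethanol mouse 62, with the next at 64.5 CPM. Amot was again lower, by a log2 fold change of -0.65 ± 0.082 (edgeR, adjusted p = 3.96e-08), at 30.1 to 44.3 CPM against 43.5 to 59.8 CPM.

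Wwtr1 had 50.6 to 75.5 CPM in isolated libraries of ethanol mice and 28.9 to 46.7 CPM in homogenates, with no overlap, and was higher by 0.59 ± 0.091 (edgeR, adjusted p = 1.22e-06). Lats1 did not overlap either, with 76 to 121 CPM against 51.7 to 75.7 CPM, and was higher by 0.49 ± 0.083 (edgeR, adjusted p = 5.37e-06). Amotl1 was higher by 0.49 ± 0.091 and Tead1 by 0.37 ± 0.10, both with overlapping groups (edgeR, adjusted p = 1.91e-05 and 0.00127). Yap1 stood at 0.15 ± 0.10, with an interval from -0.06 to 0.36 (edgeR, adjusted p = 0.165). It passed when ethanol mouse 65 was left out of the isolated libraries (0.20, adjusted p = 0.0456) and with upper quartile scaling (0.25, adjusted p = 0.0246). Ctgf stood at -0.66 ± 0.461 (edgeR, adjusted p = 0.192), a value that rested on the homogenate of ethanol mouse 78 and was -0.03 without it. Amotl2 is again given as a description: 179.7 to 279.9 CPM against 25.6 to 43.3 CPM, a log2 fold change of 2.48 ± 0.078. Of the 9 genes, the CPM of 3, Wwtr1, Lats1 and Cyr61, did not overlap, as for 47% of all genes.

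**Figure D2:**
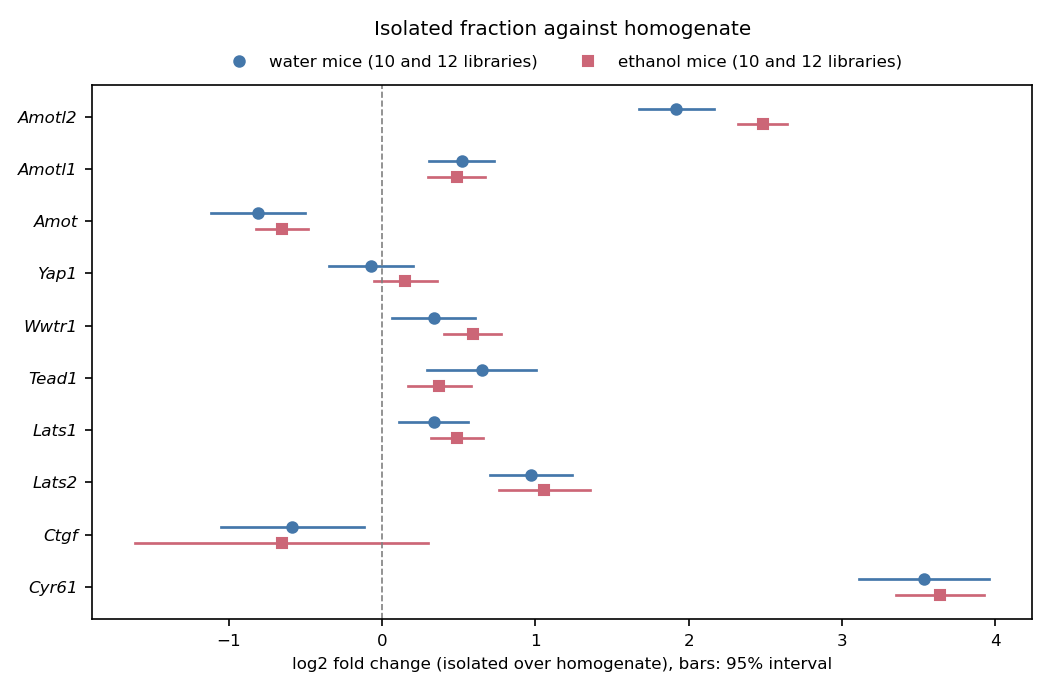
Log2 fold change of the isolated fraction over the homogenate for each gene, with 95% intervals (horizontal axis), in water mice (circles) and ethanol mice (squares), 10 isolated libraries and 12 homogenates each. Cyr61 and Amotl2 lie farthest to the right, at 3.54 and 1.92 in water mice, and Amot lies left of 0 in both.

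Levels were compared between genes per kilobase of merged exons. In the isolated fraction of water mice Cyr61 led with 92 ± 20.3 CPM per kilobase (SD, n = 10), followed by Amotl2 with 23.8 ± 3.49, Lats2 with 17.3 ± 3.50, Lats1 with 12.5 ± 3.38, Amotl1 with 12.03 ± 1.75 and Wwtr1 with 10.1 ± 3.41. Ctgf, Yap1, Tead1 and Amot followed between 6.58 and 4.03. Of neighbours in this order, the ranges over libraries were separate between Cyr61 and Amotl2 and overlapped between all others. In the homogenate of water mice the order was Lats1 (9.45 ± 1.31 CPM per kilobase), Ctgf, Lats2, Amotl1, Wwtr1, Cyr61, Amot, Amotl2 (5.94 ± 1.52), Yap1 (5.36 ± 0.854) and Tead1 (3.05 ± 0.491), and there the separate neighbours were Yap1 and Tead1. Amotl2 thus ranked 2 of 10 in the isolated fraction and 8 of 10 in the homogenate. By the longest transcript it ranked 2 and 6, and in the homogenate Yap1 moved from rank 9 to 4 and Lats1 from 1 to 3. In ethanol mice the order began with Cyr61 (106 ± 19.7) and Amotl2 (33.9 ± 4.84) in the isolated fraction, and Amotl2 was also separate from Lats2 below it (18.3 ± 2.16).

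Other genes of the pathway, taken from lists of known pathway genes, were spread to both sides of the homogenate, as were all genes, of which 37.2% were higher and 40.3% lower. Of 17 genes of the Hippo core and its upstream regulators tested in water mice, the isolated fraction had 9 higher (52.9%) and 6 lower (35.3%), and their median log2 fold change was 0.43. Among those higher, the lowest p values were those of Rassf1 (1.93 ± 0.121), a scaffold of the MST kinases, Limd1 (1.497 ± 0.101), an inhibitor of LATS kinases, Mob1a (1.84 ± 0.141), the gene of a co-activator of LATS kinases, and Map4k4 (404 ± 59.8 CPM against 172 ± 31.3), a kinase upstream of LATS. The adjusted p of these genes in edgeR lay between 3.65e-14 and 1.46e-11. Wwc1 (-1.07 ± 0.13), which encodes KIBRA, Frmd6 (-1.16 ± 0.143), Taok2 (-0.48 ± 0.066) and Nf2 (-0.31 ± 0.067), which encodes the membrane scaffold merlin, were the lower genes with the lowest p. Their adjusted p in edgeR lay between 2.66e-08 and 0.000178. The core kinase genes Stk3 and Stk4 were higher by 0.43 ± 0.136 and 0.47 ± 0.091.

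Of 13 tested genes for partners of angiomotins, cell junctions and cell polarity, 5 were higher (38.5%) and 6 lower (46.2%), near the share of all genes (37.2% and 40.3%), with a median of -0.20. Tjp1 (1.195 ± 0.116), the gene of a tight junction scaffold, was higher, as were Itch (0.89 ± 0.086), a ubiquitin ligase gene, and Mpp5 (0.77 ± 0.089), which encodes the polarity protein PALS1. Nedd4l (-2.21 ± 0.114) and Nedd4 (-0.51 ± 0.073), the genes of ubiquitin ligases that act on angiomotins, were lower, as were Magi1 (-0.86 ± 0.087) and Mpdz (-0.89 ± 0.145), which encode junction scaffolds. The adjusted p of these 7 genes in edgeR lay between 5.2e-16 and 3.72e-06. Crb1 did not pass the expression filter.

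Of the other TEAD and VGLL genes, the 3 tested were all higher: Tead3 (2.08 ± 0.22), Tead2 (1.39 ± 0.259) and Vgll4 (1.32 ± 0.117), which encodes a competitor of YAP for TEAD. Their adjusted p in edgeR lay between 5.77e-11 and 2.27e-05, while Tead4, Vgll2 and Vgll3 did not pass the filter. Of 17 tested genes of a YAP and TAZ target signature, 8 were higher (47.1%) and 4 lower (23.5%), against 37.2% and 40.3% of all genes, with a median of 0.22. Nuak2 (4.70 ± 0.239), a kinase gene, was at 44.04 ± 13.6 CPM (SD, n = 10) in isolated libraries and at 1.58 ± 1.11 CPM (SD, n = 12) in homogenates. Dock5 (2.85 ± 0.215), F3 (1.99 ± 0.154), which encodes tissue factor, and Foxf2 (1.88 ± 0.137), a transcription factor gene of pericytes, were also higher. Arhgef17 (-1.07 ± 0.116), Asap1 (-1.001 ± 0.132), Rbms3 (-1.02 ± 0.16) and Igfbp3 (-1.27 ± 0.237) were lower. The adjusted p of these 8 genes in edgeR lay between 4.46e-16 and 2.37e-05. The other CCN genes tested, Nov (-5.39 ± 0.343) and Wisp1 (-3.95 ± 0.872), were both lower (edgeR, adjusted p = 1.59e-13 and 0.000246), so that Cyr61 was the only CCN gene of the 4 tested that was higher in the isolated fraction.

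**Figure D3:**
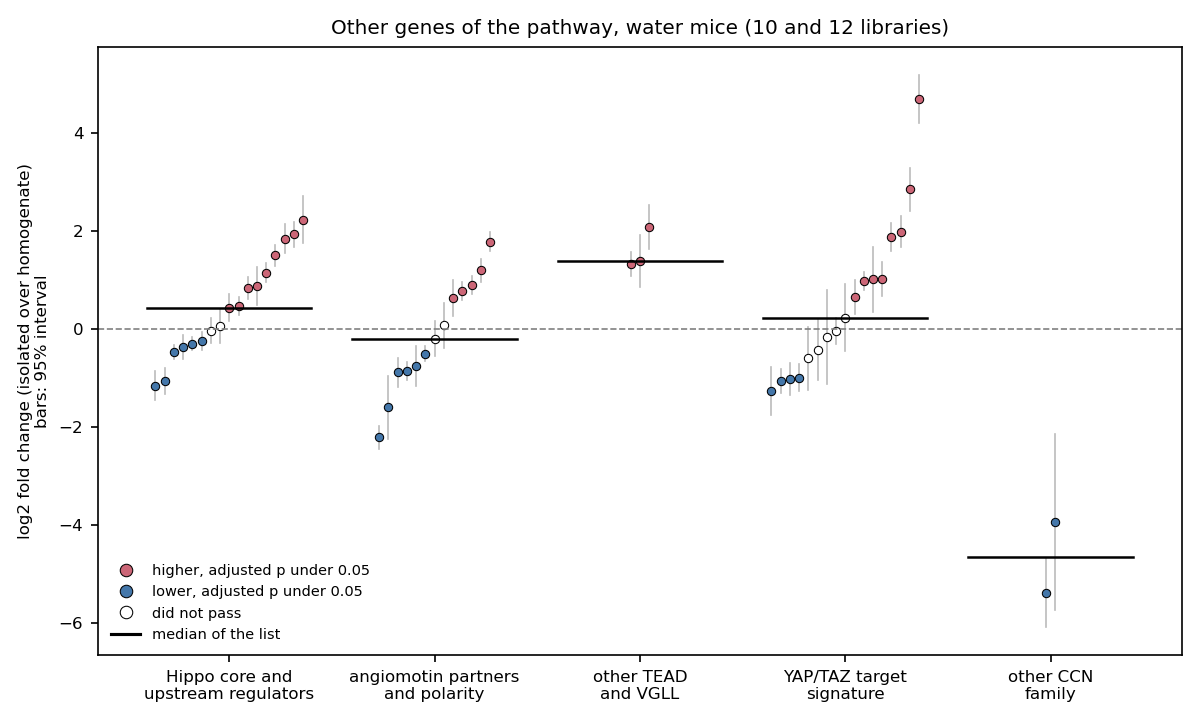
Log2 fold change of the isolated fraction over the homogenate in water mice (vertical axis, bars are 95% intervals) for the other pathway genes, by list, each point a gene and each line the median of its list. Red and blue points passed as higher and lower, white points did not pass. The Hippo core list has 9 higher and 6 lower genes, and the target list reaches 4.70 with Nuak2.

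Marker lists of several cell types, vascular ones among them, stood higher in the same libraries. Each of the 8 mural genes tested passed as higher in isolated libraries of water mice, at a median log2 fold change of 2.59, for example Pdgfrb at 268 ± 56.4 CPM (SD, n = 10) against 43.3 ± 4.05 (SD, n = 12). Endothelial genes were higher in 10 of 10 cases (median 1.36) and astrocyte genes in 9 of 10 (median 1.33), for example Gja1 at 1156 ± 573 CPM against 362 ± 69.3. The 8 microglial and the 8 oligodendrocyte genes passed as higher, at medians of 3.69 and 3.21, and the 8 neuronal genes as lower, at -3.98. Of 7 fibroblast genes tested 1 was higher (median 0.06). Of 6 genes of oligodendrocyte precursors 2 were higher and 3 lower (median -0.47). The part of each cell type in the levels of the 10 genes was not tested.

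The effect of ethanol on these genes was tested in the homogenate, which was not used to choose them. None of the 10 genes passed, and neither did any of the 13576 genes tested in edgeR (0%), of which 467 (3.44%) had an unadjusted p under 0.05. DESeq2 also called 0 genes. None of the 10 genes had an unadjusted p under 0.05, and the median over them was -0.06, against -0.01 for all genes. Amotl2 had 24.7 to 54.5 CPM in homogenates of water mice and 25.6 to 43.3 CPM in those of ethanol mice, with medians of 34.9 and 34.1. The log2 fold change of Amotl2 was -0.07 ± 0.105, with a 95% interval from -0.29 to 0.14 (edgeR, adjusted p = 0.979). The groups overlapped fully, and 4 of 12 ethanol homogenates lay above the water mean.

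For 8 of the 10 genes the homogenate estimate was below 0, between -0.08 and -0.01, and 47.7% of all genes tested were above 0. The narrowest intervals were those of Lats1 (from -0.18 to 0.09) and Amot (from -0.21 to 0.08). Amotl1 (from -0.27 to 0.13), Yap1 (from -0.23 to 0.07), Wwtr1 (from -0.24 to 0.10) and Tead1 (from -0.17 to 0.15) had intervals that did not reach 0.30 in either direction. Lats2 (from -0.36 to 0.29), Cyr61 (from -0.35 to 0.52) and Ctgf (from -0.42 to 1.15) were less precise.

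Ctgf was decided by 1 library. It had 11.3 to 59.4 CPM in homogenates of water mice, with a median of 23.9, and 9.5 to 166.9 CPM in those of ethanol mice, with a median of 18.7. The library of ethanol mouse 78 held 166.9 CPM, from 865 counts, and the next ethanol homogenate 36.3 CPM. The estimate was 0.37 ± 0.381 with this library and -0.27 without it (edgeR, adjusted p = 0.979 and 0.98). Ctgf is known as a marker of layer 6b neurons of the mouse cortex, as are Cplx3 and Nxph4, which were chosen after the Ctgf values were seen. In the same homogenate Cplx3 stood at 48 CPM, with the other 23 at 4.73 to 17.7, and Nxph4 at 31.4 CPM, with the others at 0.82 to 18.1. The isolated library of the same mouse had 34.1 CPM of Ctgf, within the range of its group. The oligodendrocyte list made up 0.685% of gene counts in this homogenate, the highest but 1 of 24, against group medians of 0.254% and 0.229%. The part of these cell types in the Ctgf value was not tested.

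In the pathway lists, 0 genes passed for ethanol in the homogenate. The lowest unadjusted p values were those of Itch (-0.14 ± 0.047, p = 0.0051), Igfbp3 (0.29 ± 0.146, p = 0.0591) and Mob1a (-0.11 ± 0.063, p = 0.102), each with an adjusted p of 0.979 in edgeR. Of the 51 genes of these lists tested here, 1 (Itch, 1.96%) had an unadjusted p under 0.05, against 3.44% of all genes.

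In the isolated fraction, the contrast by which Amotl2 was chosen, Amotl2 had 115 to 185 CPM in water mice and 179.7 to 279.9 CPM in ethanol mice, with medians of 151.6 and 210.4 and means of 149.7 ± 21.9 and 213 ± 30.4 (SD, n = 10 each). The groups overlapped by 1 water library at 185 CPM, and 10 of 10 ethanol libraries lay above the water mean. The log2 fold change was 0.48 ± 0.095, or 1.40-fold, a size that the choice of Amotl2 by this contrast favours. In edgeR 0% of the 11122 genes tested passed in this contrast, the lowest adjusted p among all genes being 0.0719, and 600 genes (5.39%) had an unadjusted p under 0.05. DESeq2 called 16 genes higher and 2 lower.

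The other 9 genes had smaller estimates in that contrast, also given as a description. Since Amotl2 was chosen by it, its larger estimate is no evidence that it responds more than they do. Tead1 was at -0.29 ± 0.196, Ctgf at 0.29 ± 0.219, Cyr61 at 0.18 ± 0.117 and Wwtr1 at 0.18 ± 0.141. Amotl1 was at -0.10 ± 0.10 and Amot at 0.09 ± 0.166. Yap1, Lats1 and Lats2 lay between 0.05 and 0.13. Without the 5 water libraries under 1000000 counts, Tead1 was at -0.47, Lats2 at -0.09, Wwtr1 at -0.02, Amot at -0.01, Lats1 at 0.01, Cyr61 at 0.04, Yap1 at 0.05 and Ctgf at 0.32, so that the sign of Lats2, Wwtr1 and Amot turned. In a model of all 4 groups, the ethanol effect in isolated cells minus that in homogenates was 0.55 ± 0.14 for Amotl2 and between -0.29 and 0.24 for the others. With the mouse as a block it was 0.44 for Amotl2. In this model 0% of 14087 genes passed, 834 (5.92%) with an unadjusted p under 0.05. Within single mice, Amotl2 was 2.75-fold to 6.92-fold higher in the isolated fraction than in the homogenate with water (median 4.15) and 4.54-fold to 8.69-fold with ethanol (median 5.95).

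**Figure D4:**
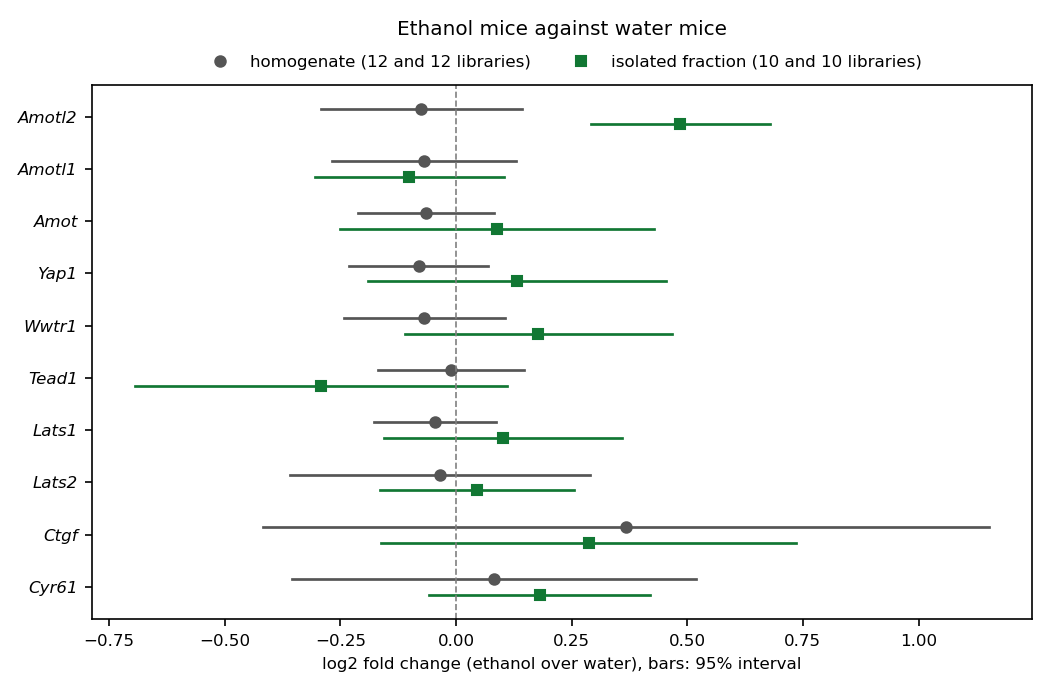
Log2 fold change of ethanol over water mice for each gene, with 95% intervals (horizontal axis), in the homogenate (circles, 12 and 12 libraries) and in the isolated fraction (squares, 10 and 10 libraries, the contrast by which Amotl2 was chosen). Amotl2 is at -0.07 in the homogenate and 0.48 in the isolated fraction. The isolated values are a description, and their intervals are not a test of Amotl2 against the other genes.

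Marker lists of several cell types were also compared between water and ethanol in the isolated fraction, where none of their genes passed. The mural list made up 0.106% to 0.188% of gene counts in water mice and 0.147% to 0.282% in ethanol mice, with medians of 0.142% and 0.218%, and 7 of the 8 mural genes tested were above 0, with a median of 0.45 and 0 called. The estimates of these 8 genes ran from -0.01 to 0.68. Pdgfrb, the defining receptor gene of mural cells, had 268 ± 56.4 and 398 ± 95.6 CPM (SD, n = 10 each). The contractile smooth muscle genes Acta2 (32 ± 8.73 and 33.1 ± 17 CPM) and Myh11 (59 ± 26.3 and 59.7 ± 22.8 CPM) differed little. With the mean level of the mural list as a covariate the estimate for Amotl2 was 0.44, and with that of the endothelial list 0.47. The astrocyte list made up 0.748% to 2.29% in water and 0.635% to 1.33% in ethanol mice, with medians of 1.09% and 1.05%. The top value was that of water mouse 73, with the next library at 1.46%. All 10 genes of the astrocyte list were below 0, with a median log2 fold change of -0.28 and 0 called. The 8 neuronal and the 8 microglial genes were also all below 0, with medians of -0.38 and -0.18 and 0 called. Of 10 endothelial genes 9 were above 0, with a median of 0.14 and 0 called. The median half-widths of the 95% intervals were larger, at 0.70 for neuronal, 0.28 for microglial and 0.39 for endothelial genes. By share of gene counts the endothelial list had medians of 0.103% in water and 0.0953% in ethanol mice, with ranges of 0.0761% to 0.143% and 0.0861% to 0.203%. The part of these lists in the Amotl2 value was not tested. The covariate fits cannot decide it, since the mural level itself differed with treatment and Amotl2 was chosen by this contrast. The mural covariate also included Cnn1, which was at 0 in 6 of 10 water and 8 of 10 ethanol isolated libraries. Without the 5 water libraries under 1000000 counts the estimate for Amotl2 was 0.46. The 5 remaining water libraries had 150.1 to 161.5 CPM, and the 10 ethanol libraries 179.7 to 279.9 CPM. Those left out include the 1 water library that overlapped the ethanol range. These values are a description only, since Amotl2 was chosen by this contrast. With libraries thinned to the same total, the estimate for Amotl2 was 0.56.

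Within groups, no relation of Amotl2 to a cell type level passed the threshold. With 10 or 12 libraries per group and adjustment over 32 relations, only very strong relations could pass. The lack of a call therefore does not show that there is no relation. Of 32 relations of its log2 CPM to the mean level of a marker list, 0 passed a permutation test of 100000 resamples (two-sided) after Benjamini-Hochberg adjustment. With the mural list, Pearson's r was 0.05 and Spearman's rho 0.01 in the isolated libraries of water mice (n = 10, permutation p = 0.894 and 1, adjusted p = 0.924 and 1), and r was 0.76 without the 2 libraries farthest from the median. In ethanol mice r was 0.40 and rho 0.42 (n = 10, permutation p = 0.252 and 0.232, adjusted p = 0.504 and 0.682), and r was 0.12 without the 2 farthest. The lowest p for Pearson's r was that of the endothelial list in isolated libraries of ethanol mice, with r = 0.67 and rho = 0.60 (n = 10, permutation p = 0.0357 and 0.0745, adjusted p = 0.475 and 0.682). Without the 2 libraries farthest from the median r was 0.30, so that this relation rested on those libraries. The lowest p for Spearman's rho was that of the fibroblast list in homogenates of water mice, with r = 0.61 and rho = 0.69 (n = 12, permutation p = 0.037 and 0.0172, adjusted p = 0.475 and 0.549). Without the 2 farthest libraries r was 0.39 there.

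**Figure D5:**
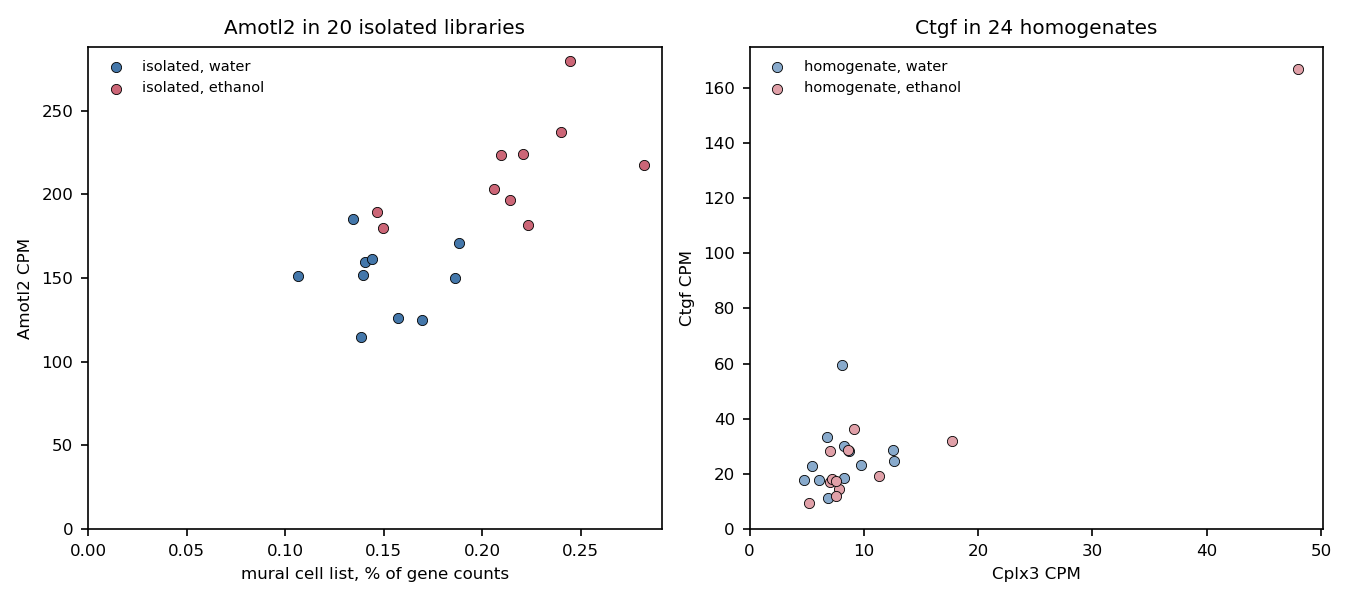
Left, Amotl2 (CPM) against the share of gene counts of the 9 mural genes (%) in 20 isolated libraries; right, Ctgf against Cplx3 (both CPM) in 24 homogenates; each point is a library, coloured by treatment. On the left, Amotl2 ran from 115 to 185.3 CPM in water and from 179.7 to 279.9 CPM in ethanol libraries. The mural list there ran from 0.106% to 0.188% and from 0.147% to 0.282%, and the groups overlap on both axes. On the right, 1 ethanol homogenate stands alone, at 48 and 166.9 CPM.

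The genes most like Amotl2 were not among the other 9. Over the 20 isolated libraries, with group means subtracted, the highest of 9686 correlations of log2 CPM were those of Rbm41 (r = 0.80), Jag1 (0.74), which encodes a Notch ligand, Champ1 (0.74), Pafah1b1 (0.71), Piga (0.71) and Mtmr1 (0.71). The nearest of the 10 genes was Wwtr1, with r = 0.49 and rank 280, and Ctgf was at -0.28, rank 8606. Over the 24 homogenates, the highest of 12749 were those of Col8a2 (r = 0.86), a collagen gene, Fbln7 (0.82), Ccna2 (0.82), Mycbpap (0.80), Aebp1 (0.79) and Man2b2 (0.79), and the nearest of the 10 genes was Tead1, with 0.54 and rank 386. The lists of the 2 fractions shared no gene. These correlations describe these libraries, which also share depth and handling. The top genes were picked as the highest of 9686 and 12749 values, a search in which high values also arise by chance. They were not tested.

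In the annotation (GRCm38, GENCODE M21) Amotl2 has 14 transcripts on chromosome 9, from 102716672 to 102733418 on the plus strand, and no gene overlaps it on the other strand. Amotl1 (14541966 to 14645056) and Yap1 (7931999 to 8004596) lie on the same chromosome, both on the minus strand. Cyr61 (145646976 to 145649981), a gene of 5 exons now called Ccn1, and Wwtr1 (57455649 to 57575910) lie on chromosome 3, both on the minus strand. Ctgf, now called Ccn2, lies on chromosome 10 from 24595442 to 24598683 on the plus strand, where 665 of its exon bases overlap Gm15270 on the other strand, and 116 exon bases of Yap1 overlap Gm20416. Because the strand setting of the counting is unknown here, reads in these stretches cannot be assigned with certainty. Exons of Lats2 overlap Gm49361 on the same strand, where the strand does not separate the reads.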

How the data were processed

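The authors deposited whole-number read counts for each gene symbol, not normalised, with 5 tally lines that name no gene and were left out. The submitters' processing notes name the build mm10 and the tools HTSeq 0.5.3p9, Bowtie2 2.2.5, cutadapt 1.8, Picard 1.141, DESeq2 and bcl2fastq 2.17. The strand setting and annotation used for counting were not given in the sources used here. The labels describe 45 samples, and 1 isolated sample, of water mouse 72, was not analysed here. Nothing but the mouse number says whether replicates were processed separately.

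Tests used edgeR 4.0.16 in R 4.3.3 on the counts (quasi-likelihood, robust estimation, TMM scaling, the expression filter of edgeR by group) over all genes, each comparison fitted on its own 2 groups, with Benjamini-Hochberg adjustment. Genes with an adjusted p under 0.05 were called. The difference of the ethanol effects came from 1 model of the 4 groups. Printed CPM are counts scaled to 1000000 gene counts per library, without TMM. Alternatives were other scalings, DESeq2 1.42.0, no filter, thinning, covariates, a mouse block and leaving out libraries. Correlations used log2 CPM with a prior count of 2 and genes of mean 20 counts or more per library. The replicates of a group correlated at 0.955 to 0.996.

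The members and lists were chosen with earlier results of these data known. All 10 members are named. Per pathway list the text could name up to 4 called genes per direction with the lowest p in water mice and up to 4 with the lowest unadjusted p in the homogenate, with the 6 genes most like Amotl2 and up to 3 markers per cell type. The values of 1 gene that this rule names are not reported here. Stk3, Stk4 and the layer 6b genes were named outside this rule, after their values were seen.

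Mouse numbers pair the fractions, since the labels say the homogenate is an aliquot of the same suspension. Over genes, deviations from group means had a median correlation of 0.07 in the 20 pairs (-0.03 to 0.15), with 7 over 0.1, and -0.003 between other mice.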

Additional observations from a re-analysis of the deposited data

Results flagged for a closer look

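In the isolated fraction 3 single values stood apart from the 10 of their group by Dixon's ratio of the gap to the range, of 38 sets of values checked, where chance alone flags about 1 in 20. Cyr61 in the isolated library of water mouse 73 was 277.7 CPM, with the next at 212.5. The astrocyte list in the same library made up 2.29% of gene counts, with the next library at 1.46%. The oligodendrocyte list in the isolated library of ethanol mouse 59 made up 2.41%, with the next at 1.89%. With single libraries left out in turn, that of water mouse 73 included, the log2 fold change of Cyr61 between the fractions of water mice ran from 3.47 to 3.64. Groups of 12 homogenates were not checked this way.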

How the results depend on the processing

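Of the 9 genes other than Amotl2, 8 were called between the fractions of water mice and 6 to 8 under the alternatives, and 7 and 7 to 8 in ethanol mice. For ethanol in the homogenate 0 of the 10 genes were called throughout. Amotl1, Amot, Tead1, Lats1, Lats2 and Cyr61 kept their direction and their call in both comparisons of the fractions, under every alternative run. Amotl2, given with no test, kept its direction there. With the mouse as a block 6 of the 9 genes were called in water mice, Wwtr1 (0.29, adjusted p = 0.0646) and Ctgf (-0.48, adjusted p = 0.076) being lost, against 8 without the block in the same mice, a fit added after the data were seen. The block changed no other call of these genes. Wwtr1 also missed in water mice without a filter (0.30, adjusted p = 0.052), after thinning (0.28, adjusted p = 0.183) and without water mouse 73 or 74 (0.21 and 0.29). Ctgf missed with upper quartile scaling (-0.49, adjusted p = 0.0594), in the model of 4 groups (-0.60, adjusted p = 0.159) and without the shallow libraries (-0.62, adjusted p = 0.0515), and it could not be fitted after thinning. Yap1 turned to 0.035 in water mice with upper quartile scaling and to 0.004 without the shallow libraries, and passed in ethanol mice after thinning (0.28, adjusted p = 0.0349). In the homogenate the sign of the ethanol estimate turned for Ctgf in DESeq2 (-0.272), and for Tead1 and Lats2 with the endothelial list as a covariate (0.002 each). When single libraries were left out it ran from -0.045 to 0.017 for Tead1, from -0.192 to 0.036 for Lats2 and from -0.267 to 0.528 for Ctgf. The cause of these changes was not tested. Thinning reduced the genes called between the fractions of water mice from 4994 higher and 5418 lower to 3286 each, with fewer counts per library. For ethanol in isolated libraries the count of 0 higher and 0 lower became 16 and 2 in DESeq2, 5 and 2 in the model of 4 groups, 1 and 0 without a filter, and 0 to 14 and 0 to 1 with single libraries left out, 10 and 14 higher without ethanol mouse 75 and 77. The Amotl2 estimate there ran from 0.438 to 0.517 with single libraries left out. Per kilobase of the longest transcript instead of merged exons, Amotl2 in isolated water libraries was 33.81 CPM rather than 23.8. Counts as low as 8 for Ctgf and 10 for Amot in isolated water libraries limit what could be detected for these genes.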
